A study of Mus musculus with 6 samples.

Results

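The genes described here are 7 markers of the basal layer of stratified and prostate epithelium: the keratins Krt5, Krt14, Krt15, Krt17 and Krt6a, the transcription factor gene Trp63, which encodes p63, and the aquaglyceroporin gene Aqp3. They were taken by symbol from the gene tables of 6 mice, and made up 7 of 55076 rows, each symbol occurring in every mouse. RNA-seq was done on the whole anterior prostate (AP), 1 library per male mouse, at 20 weeks of age. The OEx group (n = 3) had the genotype Pbsn-Cre Rosa26 N1ICD/+, so that the Notch1 intracellular domain (N1ICD) was made from the Rosa26 locus wherever Cre, driven by the probasin promoter of prostate epithelium, had acted. The Ctrl group (n = 3) carried the Rosa26 N1ICD/+ allele without Cre according to the methods, and is named wild type in the labels. Nothing in the labels says whether mice with the same number were littermates, and p-values measure only the spread between these samples.

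Keratins are the intermediate filament proteins of epithelia and assemble as pairs of a type II and a type I chain. Basal cells, which lie on the basement membrane beneath the luminal secretory cells of the prostate, are known for the type II chain Krt5 with its type I partner Krt14, for the type I chain Krt15, and for p63, the p53-family factor that maintains stratified epithelia. Krt17 and Krt6a are type I and type II chains that are induced in stressed, wounded or appendage epithelium, and Aqp3 lets water and glycerol through the basolateral membrane of many epithelial cells.

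Sequences are given first where they bear on how the members can be read. The promoter of Krt5 is shown because it holds a match to the p53-family half-site, the short palindromic motif that p63 also recognises. It lies at chr15:101712856-101713155, minus strand, in RefSeq for GRCm38.p6, and the half-site is in capitals.
Krt5 promoter: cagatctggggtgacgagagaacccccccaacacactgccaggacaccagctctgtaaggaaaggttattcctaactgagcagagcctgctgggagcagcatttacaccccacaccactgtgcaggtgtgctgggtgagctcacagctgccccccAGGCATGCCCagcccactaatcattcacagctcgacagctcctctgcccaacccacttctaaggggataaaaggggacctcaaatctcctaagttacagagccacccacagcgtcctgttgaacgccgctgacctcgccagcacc
The half-site begins 95 bases before the start site, at bases 156 to 165 of the 300-base window. Both strands were searched, the match contains the core CATG, and 8.36% of 32851 RefSeq promoters of that length held at least 1 such half-site, so the match is a description of the letters and not of binding. The table held entries for 3 of the 7 members, and no half-site was found in the windows of Krt14 and Aqp3. The Krt14 entry lies at 100205981 to 100206280 on chromosome 11, within the body of the gene as GENCODE places it. Krt15, Krt17, Krt6a and Trp63 had no entry.

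Krt14 and Krt17, type I chains that moved by different amounts, share coding sequence, and their longest exact stretch is shown because reads inside it cannot be told apart. The shared bases are in capitals and the 10 bases on either side are in lower case, from GENCODE transcripts of GRCm38.
Krt14, coding bases 1216 to 1286: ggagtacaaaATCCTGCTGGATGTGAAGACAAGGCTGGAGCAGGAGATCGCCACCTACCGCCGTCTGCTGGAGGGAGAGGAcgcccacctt
Krt17, coding bases 1105 to 1175: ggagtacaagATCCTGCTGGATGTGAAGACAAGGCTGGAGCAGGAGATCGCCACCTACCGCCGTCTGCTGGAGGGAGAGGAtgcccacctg
The shared stretch is 71 bases long. Over whole transcripts, 12.2% of the 50-base windows of Krt5 occurred in another gene, against 14.4% for Krt14, 0.67% for Krt15, 4.0% for Krt17, 0.17% for Aqp3 and none for Trp63. Krt6a stood apart, with 62.0% of its windows also present elsewhere, mostly in its neighbour Krt6b.

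The values are FPKM, read counts divided by gene length and by a denominator of the library. Reads recovered on annotated genes numbered 14762181 to 16998856 per OEx mouse and 17233771 to 18650962 per Ctrl mouse, and counting intervals below cover counting error only. The deposited denominators exceeded these reads 1.22- to 1.35-fold for OEx and were 0.73 to 0.81 times the reads for Ctrl, whose top gene alone took 14.3% to 22.0% of reads (1.04% to 1.12% for OEx). Scaling every mouse to the same FPKM sum moved the median log2 fold change of all tested genes from -0.08 to 0.65. Replicates 1 and 2 of a group were more alike (chi-square per gene of 3.79 for OEx and 2.94 for Ctrl) than either was to replicate 3 (at least 52.6), and Ctrl replicate 3 held seminal vesicle transcripts: Svs2, singled out after its values were seen, was at 3837 FPKM there and at 1.09 and 0.86 FPKM in the other Ctrl mice. Notch1 was higher in OEx mice, at 56.1 ± 19.9 FPKM against 4.69 ± 1.19 FPKM (SD, n = 3 each), a log2 fold change of 3.30 (FDR = 1.01e-04, limma). Gene-level values do not separate N1ICD transcripts of the Rosa26 allele from those of the Notch1 locus.

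Of the 7 members, those 5 that averaged 1 FPKM or more over the mice were tested, and Krt5, Krt14, Krt15, Krt17 and Trp63 were all called lower in OEx mice, in a fit in which 15.7% of 12833 tested genes were called lower and 12.9% higher. A gene was called where its FDR was under 0.05 and its level differed by more than 1 on the log2 scale. Krt6a and Aqp3 had means under 1 FPKM and are described by their values. Trp63 passed that filter only through its level in Ctrl mice. FPKM are relative levels, so in the bulk tissue a smaller share of basal cells and less RNA per basal cell cannot be told apart. Whether the number of basal cells differed was not tested.

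**Figure D1:**
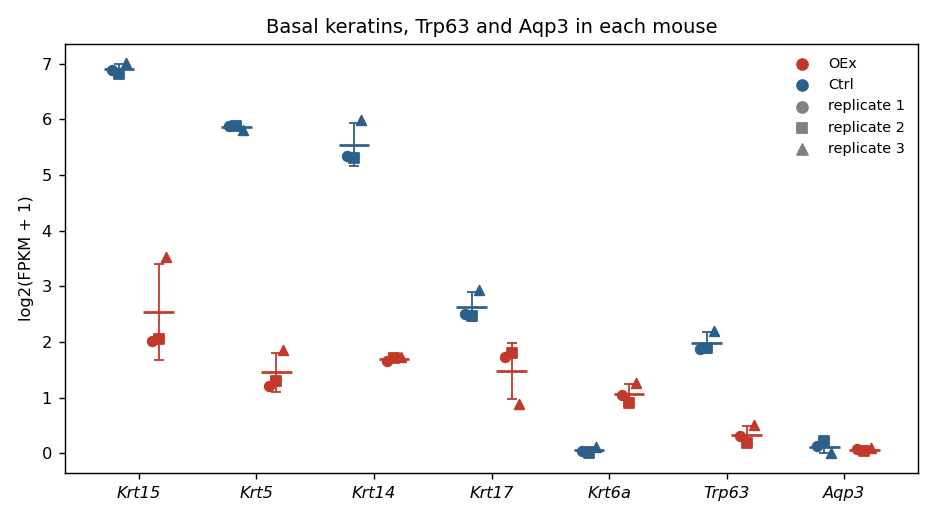
Expression of the 7 members in each mouse, as log2(FPKM + 1), with Ctrl mice in blue, OEx mice in red, symbols for the replicate number, and horizontal lines and bars for the group mean and SD (n = 3 each). Krt15, Krt5, Krt14, Krt17 and Trp63 lay lower in every OEx mouse than in any Ctrl mouse, Krt6a lay higher, and the Aqp3 values overlapped near 0.

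Krt5, the defining type II chain of basal cells, was at 1.32, 1.45 and 2.60 FPKM in OEx mice 1 to 3, and at 58.2, 58.3 and 55.2 FPKM in Ctrl mice 1 to 3. Behind these values stood 58, 73 and 103 reads for OEx and 1601, 1657 and 1843 for Ctrl. The groups did not overlap, and the lowest Ctrl mouse was 21.3-fold above the highest OEx mouse. Mean expression was 1.79 ± 0.70 FPKM against 57.2 ± 1.76 FPKM (SD, n = 3 each), that is 32.0-fold lower, and the log2 fold change was -4.41 ± 0.17 (SE, FDR = 1.74e-05, limma). Of all tested genes, 27 had a lower log2 fold change than Krt5. Its gene lies on chromosome 15, from 101707070 to 101712898, on the minus strand.

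Krt14, the type I partner of Krt5, was at 2.17, 2.29 and 2.30 FPKM in OEx mice and at 39.5, 38.4 and 62.96 FPKM in Ctrl mice. It rested on 73 to 92 reads per OEx mouse and 869 to 1682 per Ctrl mouse. The OEx mice differed little among themselves, whereas Ctrl replicate 3 was 1.62 times the mean of the other Ctrl mice. Means were 2.25 ± 0.07 FPKM and 47.0 ± 13.9 FPKM (SD, n = 3 each), 20.9-fold lower in OEx, with a log2 fold change of -3.85 ± 0.19 (SE, FDR = 2.73e-05, limma). Without Ctrl replicate 3 the log2 fold change was -3.62. Krt14 lies on chromosome 11, from 100203162 to 100207548, minus strand.

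Krt15, another type I chain of basal cells, had the highest level of the members in both groups. It was at 3.06, 3.17 and 10.6 FPKM in OEx mice and at 118, 112 and 128 FPKM in Ctrl mice, from 108, 128 and 337 reads and from 2610, 2569 and 3427 reads. OEx replicate 3 stood 3.39-fold above the mean of the other OEx mice, yet 10.6-fold below the lowest Ctrl mouse. The means of 5.599 ± 4.30 FPKM and 119 ± 7.74 FPKM (SD, n = 3 each) gave a 21.3-fold lower level in OEx and a log2 fold change of -4.37 ± 0.40 (SE, FDR = 1.43e-04, limma). Without OEx replicate 3 this was -4.87. Krt15 is on chromosome 11, from 100131758 to 100135928, minus strand.

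Trp63, the gene of the p63 factor itself, was expressed at 0.23, 0.14 and 0.42 FPKM in OEx mice and at 2.66, 2.73 and 3.59 FPKM in Ctrl mice. Reads numbered 39, 27 and 64 for OEx and 279, 297 and 458 for Ctrl. Every OEx mouse was below every Ctrl mouse, the closest of them being 6.29-fold apart. Means were 0.27 ± 0.14 FPKM against 2.99 ± 0.52 FPKM (SD, n = 3 each), 11.3-fold lower, and the log2 fold change of FPKM + 1 was -1.66 ± 0.15 (SE, FDR = 1.48e-04, limma). The added 1 FPKM shortens the difference of so low a gene, which was -3.14 with a pseudocount of 0.1 and -3.67 by limma-voom on recovered reads. The gene spans 25683763 to 25892102 on the plus strand of chromosome 16. Of its 8 annotated transcripts, 4 begin at 25683763 to 25683765 and 4 at 25801916, the starts of the long and the N-terminally truncated forms of p63, and gene-level values do not separate them.

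Krt17, a type I chain of stressed and appendage epithelium, was also called lower. It was at 2.33, 2.48 and 0.86 FPKM in OEx mice and at 4.64, 4.53 and 6.66 FPKM in Ctrl mice, from 72, 88 and 24 reads and from 90, 91 and 157 reads. OEx replicate 3 was 0.36 times the mean of the other OEx mice, and the highest OEx mouse was 1.83-fold below the lowest Ctrl mouse. Means of 1.89 ± 0.90 FPKM and 5.28 ± 1.20 FPKM (SD, n = 3 each) differed 2.79-fold, with a log2 fold change of -1.16 ± 0.27 (SE, FDR = 0.00834, limma). This call was lost without OEx replicate 3, where the log2 fold change was -0.87 (FDR = 0.00629, limma), and under each scaling that moved the median of all genes by over 0.1. Relative to that median, Krt17 was at -1.14 after scaling to the FPKM sum. It lies on chromosome 11, from 100256217 to 100261029, minus strand.

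Krt6a, the inducible type II chain, ran opposite to the 4 other keratins among the members. It was at 1.08, 0.87 and 1.40 FPKM in OEx mice, from 52, 48 and 61 reads, and at 0.03, 0 and 0.08 FPKM in Ctrl mice, from 1, 0 and 3 reads. All OEx mice were above all Ctrl mice, and the level was 0.81, 0.60 and 0.54 times that of Krt5 in OEx mice 1 to 3. Summed over mice, 161 reads in OEx against 4 in Ctrl gave a ratio of 26.9 per library denominator, with a 95% exact interval of 10.3 to 99.9 for counting error only. Krt6a was under the filter of the main test. In the fit without a filter on low values, where 6.27% of 28612 genes were called higher, its log2 difference was 1.02 (FDR = 0.00113, limma), just past the limit of 1. Krt6b, which shares most of the repeated windows, and the antisense gene Gm49428 over part of the same sequence were listed at 0 in every mouse, so how the counting dealt with shared reads bears on this level. Krt6a lies on chromosome 15, from 101689910 to 101694307, minus strand, beside Krt5.

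Aqp3 was near the limit of detection in both groups. It was at 0.05, 0.02 and 0.06 FPKM in OEx mice and at 0.09, 0.17 and 0 FPKM in Ctrl mice, which is 2, 1 and 2 reads against 2, 4 and 0 reads. The groups overlapped (exact permutation p = 0.5, two-sided), and a difference was not detectable at this depth. No fold is given, since a level of 3 reads was taken as the floor. No mouse, Ctrl included, gave more than 4 reads, so this marker did not report on basal cells in either group. The gene lies on chromosome 4, from 41092722 to 41098183, minus strand.

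For each of the other members the exact permutation test gave p = 0.1, two-sided, the smallest that 3 mice against 3 allow. Groups that do not overlap were common, being found for 72.4% of all tested genes. Krt5, Krt14, Krt15 and Trp63 were called lower under every scaling and with each mouse left out in turn.

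**Figure D2:**
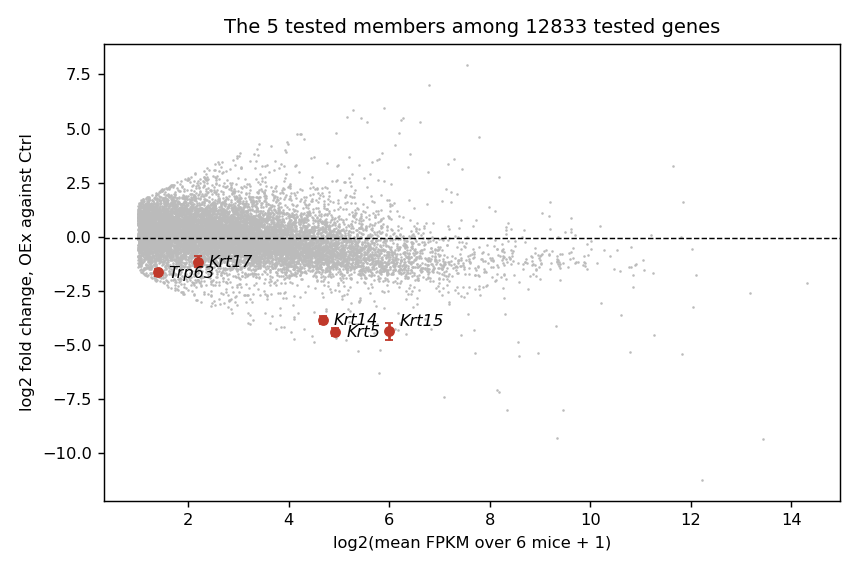
Log2 fold change of OEx against Ctrl mice on the vertical axis and log2(mean FPKM + 1) over the 6 mice on the horizontal axis, for 12833 tested genes in grey and the 5 tested members in red with their standard errors. The dashed line is the median of all genes, and Krt5, Krt15 and Krt14, at -4.41, -4.37 and -3.85, lie at the lower edge of genes of their level.

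The order of levels changed between groups. Levels are per length, but comparison between genes is limited, since 62.0% of Krt6a windows and none of Trp63 were shared with other genes. The exon length of Trp63 was 8391 bases, against 5366 for its longest protein-coding transcript, which lowers its value. In Ctrl mice, mean FPKM ran from Krt15 through Krt5, Krt14, Krt17 and Trp63 to Aqp3 and Krt6a, and only the neighbours Krt5 and Krt14, and Aqp3 and Krt6a, overlapped. In OEx mice Krt15 was again first, but Krt14, Krt17, Krt5 and Krt6a formed a run in which each overlapped the next, above Trp63 and Aqp3.

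Ratios within a mouse set each member against Krt5. Krt14 over Krt5 was 1.64, 1.57 and 0.89 in OEx mice and 0.68, 0.66 and 1.14 in Ctrl mice, so the groups overlapped. Krt15 over Krt5 was 2.32, 2.18 and 4.07 in OEx mice and 2.03, 1.93 and 2.31 in Ctrl mice. Krt17 over Krt5 was 1.76, 1.71 and 0.33 in OEx mice and 0.08, 0.08 and 0.12 in Ctrl mice, without overlap. Trp63 over Krt5 was also higher in every OEx mouse, at 0.18, 0.10 and 0.16 against 0.05, 0.05 and 0.07.

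On the log2(FPKM + 1) scale the ratio to Krt5 differed between groups by 3.25 for Krt17, 2.75 for Trp63 and 5.43 for Krt6a, each with an exact permutation p = 0.1 and 0.15 after Benjamini-Hochberg adjustment over 6 ratios. The differences were 0.56 for Krt14 (exact p = 0.2, adjusted 0.24) and 0.04 for Krt15 (exact p = 1). The added 1 FPKM sets much of these sizes for low genes, and with a pseudocount of 0.1 the differences were 3.44 for Krt17, 1.84 for Trp63 and 8.14 for Krt6a. No ratio could pass a threshold of 0.05 with 3 mice a group. The sign for Krt15 turned to -0.26 without OEx replicate 3. With Krt5 at 1 to 3 FPKM in OEx mice, these ratios rest on few reads.

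**Figure D3:**
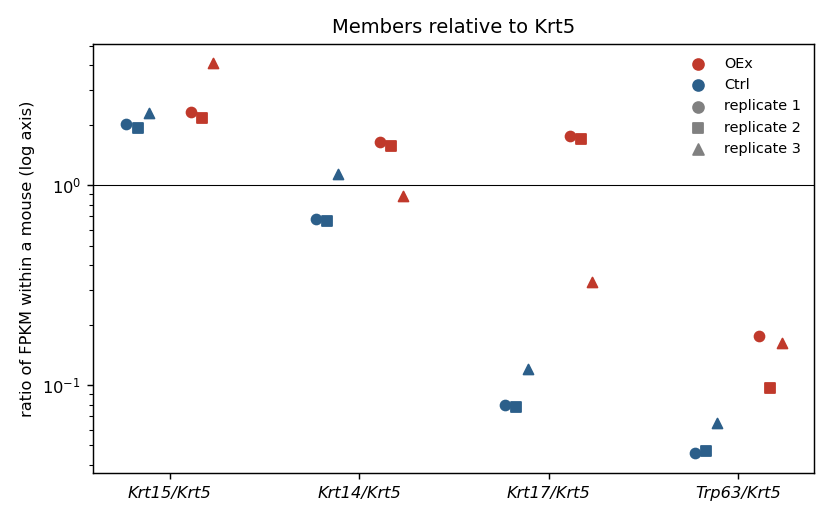
FPKM of Krt15, Krt14, Krt17 and Trp63 divided by that of Krt5 in the same mouse, on a log axis, with Ctrl mice in blue, OEx mice in red and symbols for the replicate number. Krt17 over Krt5 was 0.33 to 1.76 in OEx mice and at most 0.12 in Ctrl mice, while the Krt14 ratios of the groups overlapped.

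Relative to all keratin transcripts, the 5 basal keratins held 0.78%, 0.80% and 1.13% of the summed keratin FPKM in OEx mice and 10.1%, 10.1% and 12.5% in Ctrl mice. This share does not depend on the scaling between mice. Krt15 was the largest part in every Ctrl mouse, at 5.32% to 6.32% of the keratin sum, and was at 0.24%, 0.25% and 0.68% in OEx mice. Krt5 was at 2.66% to 2.76% of the sum in Ctrl mice and at 0.10% to 0.17% in OEx mice. The luminal pair Krt8 and Krt18 made up 44.3% to 46.2% in OEx mice and 60.5% to 61.7% in Ctrl mice. Krt7 with Krt19 made up 46.8% to 48.6% against 23.7% to 25.8%, nearly all of it Krt19. Krt19 was at 654 ± 76.5 FPKM in OEx and 517 ± 38.9 FPKM in Ctrl mice (SD, n = 3 each) and was not called. Krt7 was lower, at 1.33 ± 0.19 FPKM against 5.62 ± 0.66 FPKM.

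**Figure D4:**
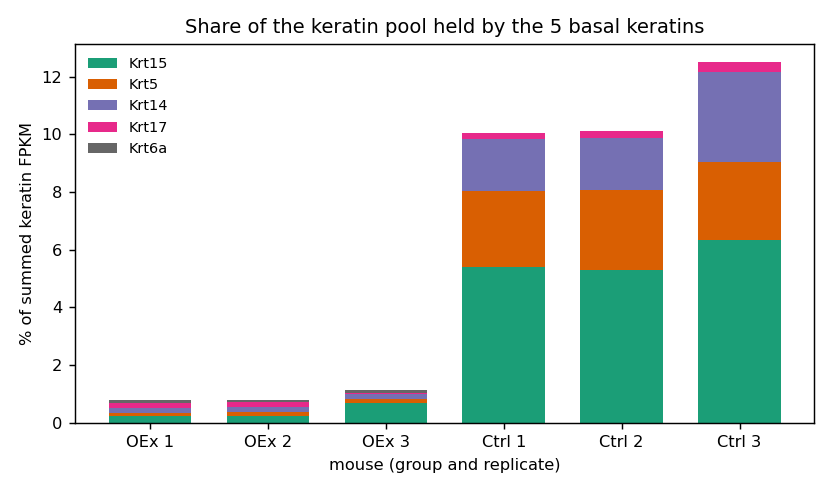
Percent of summed keratin FPKM held by Krt15, Krt5, Krt14, Krt17 and Krt6a, stacked for each mouse. The stacks reach 0.78% to 1.13% in OEx mice and 10.1% to 12.5% in Ctrl mice.

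Of 49 other keratins listed, 29 were above 0 in some mouse and 9 were tested. Among these 9, 2 were called lower and 1 higher, beside 15.7% and 12.9% of all tested genes, with a median log2 fold change of -0.43. The chains called lower were of simple epithelium, with Krt18 at -1.49 (FDR = 1.32e-04, limma) and Krt7 at -1.51 (FDR = 8.80e-05, limma). Both calls were lost after scaling to the FPKM sum, where Krt18 was at -1.24 and Krt7 at -1.51 relative to the median of all genes. Krt4, a chain of non-cornified stratified epithelium and of proximal luminal cells, was called higher, at 55.2 ± 13.0 FPKM against 22.5 ± 0.39 FPKM (SD, n = 3 each), with a log2 fold change of 1.24. Krt6b, Krt12 and Krt84 were listed at 0 in all mice.

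Other genes listed for basal cells moved in both directions, and whether each of them marks basal cells of the mouse prostate was not tested. Of 24 genes in the list of adhesion, receptor and marker genes, 19 were tested, 7 were called lower and 2 higher. All tested genes gave 15.7% lower and 12.9% higher. The median log2 fold change of the list was -0.65 beside -0.08 for all tested genes. Dlk2, a transmembrane homologue of Dlk1, was at 0.26, 0.48 and 1.18 FPKM in OEx mice and 9.12, 9.72 and 15.8 FPKM in Ctrl mice, with a log2 fold change of -2.94 ± 0.27 (SE, FDR = 1.52e-04, limma). The galectin gene Lgals7 was called lower by 2.67 on the log2 scale (FDR = 0.00487, limma), with its lowest Ctrl value of 2.63 FPKM in replicate 3 and 13.97 and 14.7 FPKM in the others. The laminin chain genes Lamb3 and Lama3, of the epithelial basement membrane, fell by 2.23 and 1.98 on the log2 scale. Col17a1, the hemidesmosomal collagen that anchors basal cells, fell by 2.08, from 4.49 ± 0.83 FPKM in Ctrl to 0.30 ± 0.19 FPKM in OEx (SD, n = 3 each). Its partners Itgb4 and Itga6 had log2 differences of 0.05 and -0.20 and were not called. Dlk2, Lgals7, Lamb3, Lama3 and Col17a1 had OEx means under 1 FPKM and passed the filter only through the Ctrl mice.

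The remaining genes called lower were the cell adhesion gene Cdh3, by 1.10 on the log2 scale, and the glucose transporter gene Slc2a1, by 1.20, and both calls were lost under each scaling that moved the median of all genes, that of Cdh3 also without OEx or Ctrl replicate 3. After scaling to the FPKM sum, 5 genes of the list were called lower and 5 higher. Over all 12833 tested genes, that scaling gave 504 lower and 4458 higher. The genes called higher were Mme, a membrane metallopeptidase, and Egfr, the receptor for epidermal growth factor. Mme was at 101 ± 21.7 FPKM in OEx mice and 7.29 ± 0.24 FPKM in Ctrl mice (SD, n = 3 each), and its log2 fold change was 3.60 (FDR = 2.10e-05, limma). The 5 genes under the filter differed in direction. Snai2, a transcription factor of basal cells, was at 0.20 to 0.35 FPKM in OEx mice and 0.92 to 1.86 FPKM in Ctrl mice, and Ngfr, a neurotrophin receptor gene, at 0.13 to 0.40 FPKM and 0.65 to 0.92 FPKM. Dapl1 was at 0.64 to 1.88 FPKM in OEx mice and 0.10 to 0.46 FPKM in Ctrl mice, while Bcl11b and Vsnl1 were at most 0.18 and 0.05 FPKM in any mouse.

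**Figure D5:**
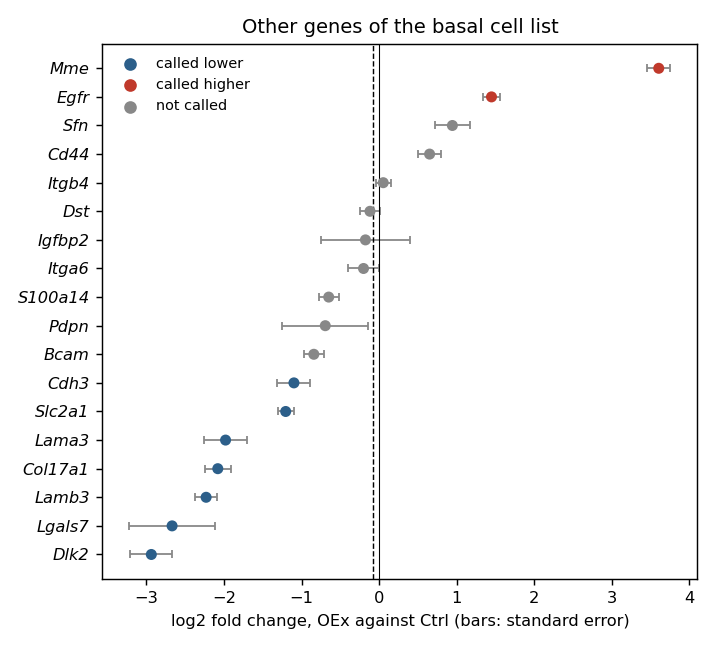
Log2 fold change of OEx against Ctrl mice with standard errors for tested genes of the basal cell list, the members and 1 gene not reported here left out, with genes called lower in blue, called higher in red and not called in grey. The dashed line is the median of all tested genes at -0.08, and the points run from -2.94 for Dlk2 to 3.60 for Mme.

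Genes known as p63 targets did not follow Trp63 in 1 direction. Of 20 genes, 17 were tested, 4 were called lower and 5 higher, beside 15.7% and 12.9% of all tested genes. The median log2 fold change of the list was 0.35. The genes called lower were the Notch ligand gene Jag2, the desmosomal plaque gene Pkp1, the integrin gene Itga3 and the chromatin organiser gene Satb1. Jag2 was at 1.34 ± 0.52 FPKM in OEx mice against 14.1 ± 2.63 FPKM in Ctrl (SD, n = 3 each), which was -2.70 as a log2 fold change (FDR = 6.52e-05, limma). Jag1, the other Notch ligand of the list, was called higher, at 13.7 ± 2.56 FPKM against 2.03 ± 0.42 FPKM, with a log2 fold change of 2.27 (FDR = 6.26e-05, limma). Zfp750, a zinc finger factor of epidermal differentiation, was called higher by 2.98 on the log2 scale (FDR = 2.64e-05, limma). Bcl9l, Cdkn1a and Fermt1 were the remaining genes called higher. The Satb1 call was lost without OEx replicate 1 or 2, and that of Fermt1 without OEx replicate 2 or Ctrl replicate 1 or 2. After scaling to the FPKM sum, 2 genes of this list were called lower and 9 higher, beside 504 lower and 4458 higher among all 12833 tested genes.

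Among 12 genes of stratified desmosomes, 8 were tested. Pkp1 was called lower, at 0.59 ± 0.27 FPKM against 6.0 ± 0.55 FPKM (SD, n = 3 each), and passed the filter only through the Ctrl mice. Dsp, which encodes desmoplakin, was called higher by 1.11 on the log2 scale. The Dsp call was lost without OEx replicate 3 or without Ctrl replicate 3. Dsg1a and Dsg3 were listed at 0 in all mice.

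Of the relatives of p63, Trp53 had a log2 difference of 0.57 (FDR = 0.00188, limma) and was not called, and Trp73 was under the filter at a mean of 0.05 FPKM in OEx and 0.04 FPKM in Ctrl mice. Among 11 other aquaporins, 2 were tested. Aqp1, a water channel of endothelium and other cells, was called lower, at 5.33 ± 0.25 FPKM against 43.8 ± 9.62 FPKM (SD, n = 3 each), and Aqp5 had a log2 difference of -0.44 (FDR = 0.0838, limma).

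Markers of other cells also differed between the groups, in the fit in which 15.7% of all tested genes were called lower and 12.9% higher. Of 7 luminal markers 4 were called lower and 1 higher, and their summed level, most of it Pbsn, was 3029 to 5946 FPKM in OEx mice and 17228 to 21095 FPKM in Ctrl mice. After scaling to the FPKM sum, 1 of 7 was called lower, with Pbsn, Cd24a, Krt18 and Hoxb13 at -2.35, -1.59, -1.24 and -1.08 relative to the median of all genes. Pbsn, the gene whose promoter drives Cre here, was at 2785 ± 1489 FPKM against 15621 ± 2413 FPKM (SD, n = 3 each). All 6 smooth muscle markers were called lower, with sums of 419 to 505 FPKM against 1252 to 2671 FPKM. The high end was Ctrl replicate 3, with Acta2 at 1166 FPKM there and at 579 and 566 FPKM in the other Ctrl mice. Des lost its call with any mouse left out, and Myh11 without Ctrl replicate 3. After scaling to the FPKM sum 1 of 6 was called lower, while relative to the median of all genes Cnn1 was at -2.17, Acta2 at -1.59, Tagln at -1.54, Actg2 at -1.50, Myh11 at -0.94 and Des at -0.94. Of 6 proximal luminal markers 2 were called lower and 4 higher, and their sums were 417 to 706 FPKM against 264 to 350 FPKM. Clu, among the latter, was not called without replicate 1 or 2 of either group. Of 4 tested urothelial markers 2 were called higher, Upk3a by 4.37 and Upk1a by 3.59 on the log2 scale. Upk3a, with a mean of 0.45 FPKM in Ctrl mice, passed the filter only through the OEx mice. Upk2 and Upk1b were not called, with log2 differences of 0.52 and -0.90. Upk1b was lower, at 83.3 ± 11.0 FPKM in OEx against 157 ± 19.9 FPKM in Ctrl mice (SD, n = 3 each). Urothelial sums were 326 to 552 FPKM against 150 to 201 FPKM.

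Endothelial sums were 6.67 to 8.04 FPKM against 18.6 to 24.0 FPKM, with Emcn as the only 1 of 5 called, lower. Emcn, with a mean of 0.74 FPKM in OEx mice, passed the filter only through the Ctrl mice. The summed levels of fibroblast markers, 21.5 to 168 FPKM in OEx and 45.2 to 80.0 FPKM in Ctrl mice, and of immune markers, 4.52 to 20.5 FPKM and 4.42 to 10.3 FPKM, overlapped between the groups with no gene called. The low end of both OEx ranges was replicate 3, and without it 3 of 5 fibroblast markers (Col1a1 by 2.46, Lum by 2.33 and Col1a2 by 1.91 on the log2 scale) and both tested immune markers were called higher. No seminal vesicle marker was called, and their sum was at most 1.11 FPKM in OEx mice and 2.74 to 16128 FPKM in Ctrl mice. The high end was Ctrl replicate 3 alone, with Svs5 at 10674 FPKM there and at 2.72 and 1.32 FPKM in the other Ctrl mice. Of 5 tested cornified squamous markers 1 was called lower, Lor, and 1 higher, Sbsn, with Flg and Sprr1b at 0 throughout. Lor passed the filter only through the Ctrl mice, and Sbsn only through the OEx mice. The part that these markers have in the levels of the basal keratins and Trp63 was not tested. For all lists together, 27 of 90 tested genes were called lower and 16 higher, beside 15.7% and 12.9% of all tested genes.

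Profiles over the 6 mice were compared with the mean profile of the tested members, a measure that largely follows the size of the fold change. No tested keratin outside the members had a log2 fold change below the -1.51 of Krt7, so none could be among the nearest. By root mean square difference of centred log2(FPKM + 1), Fmod, which encodes the collagen-binding proteoglycan fibromodulin, was nearest at 0.05, followed by Tmod4, an actin filament cap, at 0.12, the transcription factor gene Atoh8 at 0.13, the phosphatase gene Dusp5 at 0.14 and the stress-response gene Ddit4 at 0.14, against a median of 1.53 over 12546 genes compared. Fmod was at 2.23, 2.08 and 2.93 FPKM in OEx mice and 27.7, 26.4 and 35.0 FPKM in Ctrl mice. The members themselves lay 0.41 (Krt14) to 1.04 (Krt17) from their own mean, since their sizes of change differed.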

How the data were processed

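The authors deposited 1 table of FPKM per mouse by gene symbol, made from TruSeq libraries run on a Illumina HiSeq instrument with an in-house pipeline. The submitters' processing notes name CASAVA, HISAT2 2.0.5, StringTie 1.3.3b and featureCounts 1.5.0-p3. The genome build is not given in the sources used here. Symbols were matched to GENCODE M21 (GRCm38), which placed 53636 rows, and all coordinates are from there or from RefSeq. Reads were recovered from FPKM and the union of exons, 96.9% to 97.5% of values per mouse coming out whole within 0.05 reads, a step tested on simulated data.

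The group difference was fitted by limma 3.58.1 (R 4.3.3), with an intensity trend, to log2(FPKM + 1) of the 12833 rows that averaged 1 FPKM or more. FDR is Benjamini-Hochberg over all of them. Fold changes on this scale understate low genes. Exact permutation tests ran over 20 assignments. Other steps used scipy 1.17.1, pandas 2.3.3, numpy 2.4.6 and, for plots, matplotlib 3.10.9, in Python 3.11.15.

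Replicate numbers run from 1 to 3 in both groups, and the deviations of same-numbered mice from their group means correlated at -0.23, -0.21 and -0.32. Those of OEx mouse 1 correlated with Ctrl mice 2 and 3 at -0.26 and 0.30. With 3 mice a group, and replicate 3 apart in both, these correlations cannot show whether the numbers paired mice. Named were all members, up to 4 called genes per list with the largest changes, all tested p53-family and aquaporin genes, the 5 nearest profiles and Notch1. Other genes were named after their values were seen. Members and lists were chosen with earlier results of these data known. A gene of the basal cell list and a stretch of sequence are not reported here.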

Additional observations from a re-analysis of the deposited data

How the results depend on the processing

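Krt5, Krt14, Krt15 and Trp63 stayed called lower under every alternative, and the limits concern Krt17, Krt6a and the lists. Scaling to the FPKM sum gave 504 genes lower and 4458 higher, 14 list genes lower and 29 higher, and -0.48 for Krt17 (FDR = 0.176, limma). Leaving the 20 top genes out of that sum gave 717 genes lower and 3477 higher, 19 list genes lower and 27 higher, and -0.67 for Krt17. Upper-quartile scaling gave 1326 genes lower and 2341 higher, and -0.95 for Krt17. These losses come with a median log2 fold change of all genes of 0.65, 0.45 and 0.15. With each mouse left out in turn, Krt17 ranged from -1.32 to -0.87, and the Krt15 to Krt5 log2 ratio difference from -0.26 to 0.20, turning negative without OEx replicate 3 and without Ctrl replicate 2 (-0.02). Without a filter on low values, 1 member (Krt6a) was called higher. Alternatives chosen after seeing the data kept genes with at least 10 reads in 3 or more mice. Krt6a entered these only through the OEx mice, where it was high, so its call there (1 member higher) is no support. With limma-voom on those genes, 2748 genes were lower and 3545 higher, and Krt6a was at 4.69. With an FDR under 0.05 alone, 39 list genes were lower and 27 higher, and these counts have no share of all genes beside them here.

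A replicate block beside the group left 1986 genes lower and 1611 higher, and all 5 tested members were called lower. The block changed no call of a member. Levels under about 3 reads, such as Aqp3, cannot be compared at this depth, which also limits Krt6a in Ctrl mice.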
